A study of Mus musculus with 18 samples.

Results

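Rasgrf1, Zdbf2 and Gpr1 are mouse genes of imprinted loci on chromosomes 9 and 1. They were found by gene name in the deposited annotation and are 3 of its 35977 genes. H3K9me3, a histone mark of silent chromatin, was measured by ChIP-seq with an anti-H3K9me3 antibody in E14TG2a mouse embryonic stem cells (mESCs) grown in serum and LIF. The groups were wild-type (WT), UHRF1KO (Uhrf1 KO) and DHX9KO (Dhx9 KO), with 2 libraries each. The 6 peak lists of these libraries were used, and the other 12 of the 18 samples were not analysed here. The study's methods describe its Uhrf1 KO lines as clones that carry a TetR-KRAB reporter system. Its figure legends name the wild-type cells by the reporter as well. How the Dhx9 KO cells were made is not described in the paper. The labels do not say whether both Uhrf1 KO libraries came from 1 clone, so p-values measure only the spread between these libraries. Peak lists hold no transcript levels, so neither the loss of the targeted genes nor the identity of the cells could be checked in them.

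In genomic imprinting, a differentially methylated region carries DNA methylation on the chromosome from 1 parent, and the allele of a nearby gene is expressed or silent accordingly. At Rasgrf1, which encodes a Ras guanine nucleotide exchange factor, the region lies upstream of the promoter beside a tandem repeat and is methylated on the paternal chromosome. Zdbf2, which encodes a zinc finger protein, is expressed from the paternal chromosome, with paternal methylation upstream of its main promoter. Its long transcripts start within Gpr1, a gene for a G protein-coupled receptor, at a region that is methylated in the oocyte, so the name paternally methylated covers that end of the locus only in part. UHRF1 brings the maintenance DNA methyltransferase DNMT1 to newly replicated DNA, DHX9 is an RNA and DNA helicase, and ZFP57 is a KRAB zinc finger protein that binds the hexamer TGCCGC in methylated DNA and recruits H3K9 methylation to imprinted regions.

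The windows were the annotated transcripts with 40 kb on each side, in mm10. The Rasgrf1 window, chr9:89869476-90066979, spanned 197504 bp and also held the start of Ctsh, the gene for the protease cathepsin H. The window of Zdbf2 and Gpr1, chr1:63142571-63354576, spanned 212006 bp and also held all or part of Ino80dos, Ndufs1, Eef1b2, Snora41, 1700039I01Rik and Gm11608. Zdbf2 and Gpr1 overlap on opposite strands, so a peak in their shared part cannot be given to one of them.

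The sequences below come from the Rasgrf1 upstream site and from a Zdbf2 site with no Uhrf1 KO peak. They also show a Gpr1 intron site with a peak in all 6 libraries and a promoter with no peak in any. All are from mm10, and capitals mark TGCCGC or its reverse complement GCGGCA, except in the repeat unit, where they mark the CpG. The first is the part of the Rasgrf1 upstream site with the most hexamers, chr9:89879594-89879893 on the plus strand, between genes. It holds 28 CpG and 6 hexamers in 300 bp.
Rasgrf1 upstream: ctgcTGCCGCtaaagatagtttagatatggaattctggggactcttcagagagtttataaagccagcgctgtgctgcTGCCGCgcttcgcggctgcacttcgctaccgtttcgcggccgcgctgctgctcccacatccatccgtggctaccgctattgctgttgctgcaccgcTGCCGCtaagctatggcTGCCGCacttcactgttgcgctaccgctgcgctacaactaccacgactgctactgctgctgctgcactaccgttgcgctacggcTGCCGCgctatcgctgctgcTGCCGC
Rasgrf1 tandem repeat unit: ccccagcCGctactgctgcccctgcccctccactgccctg
The repeat unit of 40 bp lies beside this part, toward the gene. It had 9 exact copies between chr9:89880495-89881296 and 21 copies with up to 6 mismatches between chr9:89879917-89881526, with 1 CpG in the unit. The next sequences are the start of the Zdbf2 site described below, chr1:63302601-63302900 on the plus strand, which runs into the last exon, and the centre of the Gpr1 intron site, chr1:63185851-63186150 on the minus strand, which is the strand of Gpr1.
Zdbf2 last exon: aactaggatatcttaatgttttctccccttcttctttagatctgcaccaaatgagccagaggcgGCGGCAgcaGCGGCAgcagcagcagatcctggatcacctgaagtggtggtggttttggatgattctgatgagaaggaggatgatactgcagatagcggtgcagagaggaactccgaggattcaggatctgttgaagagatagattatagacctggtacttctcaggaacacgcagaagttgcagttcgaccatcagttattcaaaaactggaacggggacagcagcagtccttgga
Gpr1 intron: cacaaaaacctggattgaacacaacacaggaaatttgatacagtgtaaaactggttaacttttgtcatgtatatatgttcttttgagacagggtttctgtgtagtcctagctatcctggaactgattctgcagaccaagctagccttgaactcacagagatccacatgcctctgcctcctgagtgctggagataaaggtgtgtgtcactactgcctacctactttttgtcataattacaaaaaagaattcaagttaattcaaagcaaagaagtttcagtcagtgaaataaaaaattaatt
The last is the RefSeq promoter of the long Zdbf2 transcripts (table build GRCm38), chr1:63200108-63200407 on the plus strand, with 15 CpG and 3 hexamers.
Zdbf2 long-transcript promoter: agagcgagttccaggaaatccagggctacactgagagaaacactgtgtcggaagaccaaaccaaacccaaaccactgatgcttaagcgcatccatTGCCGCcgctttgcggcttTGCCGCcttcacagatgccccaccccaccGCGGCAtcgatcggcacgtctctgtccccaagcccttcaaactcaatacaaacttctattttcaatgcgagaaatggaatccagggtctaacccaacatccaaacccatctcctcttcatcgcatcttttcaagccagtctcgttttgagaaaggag

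The 6 libraries held between 70195 and 125453 peaks over 203 to 416 Mb, and Uhrf1 KO replicate 1 was the smallest in both. Its peaks held 32.9 ChIP reads per kb, against 48.3 to 51.4 in the other 5 libraries, and its ChIP library was smaller than that of Uhrf1 KO replicate 2 by a ratio of 1.85. Peaks with the same limits had the same background reads in all lists of wild-type and Dhx9 KO cells, and other background reads in both Uhrf1 KO lists. The study's methods name wild-type input as the background of every list and reads subsampled to about the same number per library, and the Uhrf1 KO lists departed from both. The genotype and the background used for calling cannot be told apart for Uhrf1 KO, and this limit holds for each comparison of its peaks, read counts and called lengths with wild-type. Log2 folds of ChIP over background also ran higher in the whole Uhrf1 KO lists, with medians of 1.56 and 1.29 against 1.05 and 1.06 in wild-type and 0.93 and 1.01 in Dhx9 KO. A site with no peak has no read count in a list, so a lost peak is a signal that was not called, not a signal of 0.

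The strongest H3K9me3 site of the Rasgrf1 window, by the lower of both wild-type log2 folds, lay upstream of the gene and was not called in Uhrf1 KO cells. It is the stretch shared by peaks of both wild-type lists at chr9:89878201-89882000, of 3800 bp, which ends 27.5 kb before the first annotated Rasgrf1 start. Its wild-type peaks held 496 ChIP reads over 73 background reads in replicate 1 (log2 fold 2.92, peak of 3800 bp) and 621 over 100 in replicate 2 (log2 fold 2.85, peak of 5200 bp). In the genome, 1.28% of wild-type stretches were at least as strong in both libraries. The nearest peaks of Uhrf1 KO were 17793 bp from the printed part in replicate 1 and 9507 bp in replicate 2. Peaks of like width (within 10%) elsewhere in the genome were called with at least 36 ChIP reads in Uhrf1 KO replicate 1 (5th percentile 55). In replicate 2 they held at least 70 (5th percentile 86). These are counts of called peaks and set no upper limit for a site that was not called. They were not scaled to a common library size and the Uhrf1 KO lists have another background. The signal left at the site is therefore not known.

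Dhx9 KO libraries kept a peak at the upstream site, with a lower fold. Replicate 1 held 383 ChIP reads over 91 background reads in a peak of 5000 bp (log2 fold 2.07). Replicate 2 held 545 over 213 in a peak of 9200 bp, which ran on toward the gene (log2 fold 1.36). Both Dhx9 KO values lay below both wild-type values. The site was chosen as the strongest of the window in wild-type cells, so lower values in another group are in part built in. Median folds of the whole Dhx9 KO lists were lower as well (0.93 and 1.01 against 1.05 and 1.06). No share over stretches as strong stands beside this difference. Per kb of peak over the wild-type region of 5200 bp, and scaled to the ChIP library of wild-type replicate 1, the reads were 123 and 124 in wild-type cells and 68.6 and 50.9 in Dhx9 KO cells, the last over 12400 bp of peaks. In the wider merged region around the site, chr9:89870601-89893000, the fitted log2 difference of Dhx9 KO from wild-type was -0.36 ± 0.16 (SE). It did not pass the test (edgeR quasi-likelihood, adjusted p = 0.509 over all regions called in every library). This difference, like those below unless stated, is in reads per called length, so a change of called length does not enter it.

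**Figure D1:**
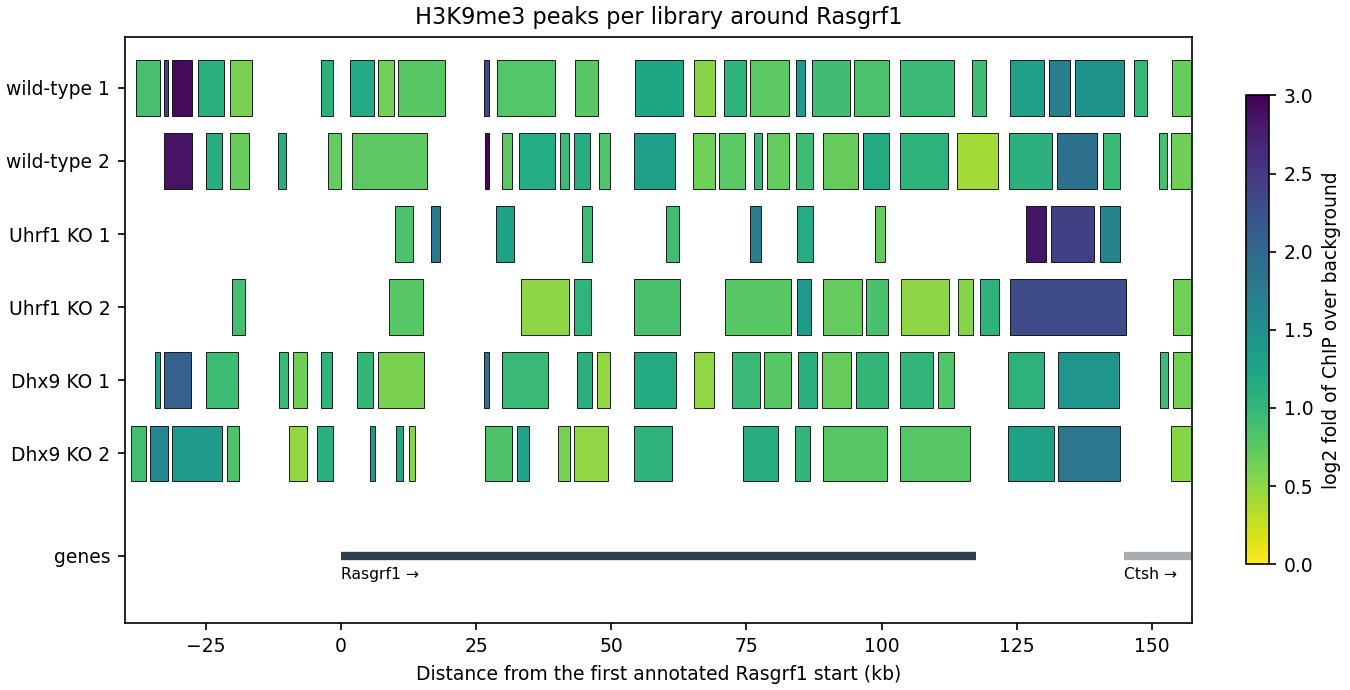
H3K9me3 peaks of the 6 libraries (rows) around Rasgrf1, by distance in kb from its first annotated start; box colour is the log2 fold of ChIP over background and bars at the foot are genes. The dark wild-type boxes about 27.5 kb before the start have no box below them in the Uhrf1 KO rows, while the block between Rasgrf1 and Ctsh is present in all 6 rows. Colours run darker over the whole Uhrf1 KO lists, so they compare peaks within a row.

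The upstream site stood apart in sequence as well as in strength. Its GC content was 57.7%, above that of 99.1% of the 101845 wild-type stretches of at least 600 bp in the genome, and its 94 CpG gave 24.7 CpG per kb, above 95.2% of them (median of all stretches 11.2 CpG per kb). It held 7 copies of the ZFP57 hexamer on either strand. Of 23742 wild-type stretches at least as long, 35.8% held a hexamer in a central part of the same length, and 13, or 0.0548%, held at least 7. Of the 4892 stretches with at least as many CpG per kb, 14.8% had no Uhrf1 KO peak, against 25.5% of the stretches with fewer. Of the 526 with both CpG per kb and GC content at least as high, 33.7% had none. These sets differed in strength too, with medians of the lower wild-type log2 fold of 1.71, 0.91 and 1.14 in the same order.

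In Uhrf1 KO cells the share of wild-type stretches around Rasgrf1 that were not called was close to that of the genome. Of 29 wild-type stretches in the window, 7 (24.1%) lacked a peak in both Uhrf1 KO libraries, against a background of 25.0% of all stretches, and 11 (37.9%) had a peak in both, against 46.7%. Places within the window were compared after the data were seen, and no genome share for such places stands beside the counts that follow. Before the transcripts, 4 of 5 stretches had no Uhrf1 KO peak and none had a peak in both libraries. These include the upstream site and a stretch of 600 bp beside it, which share a peak of wild-type replicate 2. Within the transcripts, 3 of 17 had none and 6 had both, and after them 0 of 7 had none and 5 had both.

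Few sites as strong as the upstream site were lost. Of the 1304 stretches of the genome at least as strong as it in both wild-type libraries, 23, or 1.76%, had no Uhrf1 KO peak. A further strong and narrow wild-type peak, in a Rasgrf1 intron at chr9:89936201-89936800, also had none. Its wild-type peaks held 64 and 67 ChIP reads with log2 folds of 2.35 and 2.96, the second above the 2.85 of the upstream site in that library. Of its length 79.7% was soft-masked as repeat, and it held 1 hexamer. Dhx9 KO had peaks over it in both libraries, with log2 folds of 1.92 and 0.84, the second in a peak of 5000 bp. The stretch of 600 bp next to the upstream site, at chr9:89876801-89877400, was the other of the 3 stretches with a lower wild-type fold above 2, and it had no Uhrf1 KO peak either. It lay under the same peak of wild-type replicate 2 as the upstream site and in the same merged region, so it is not a separate site.

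As merged regions, 5 of the 16 Rasgrf1 regions called in wild-type replicates 1 and 2 were lost in Uhrf1 KO, where 24.2% of all such regions were lost, and none was gained, where 8.51% of all regions with a peak in both Uhrf1 KO libraries were gained. The lost regions started at 89876801, 89883001, 89905801, 89936001 and 89974601 on chromosome 9, with highest log2 folds of 2.92, 1.13, 1.09, 2.96 and 0.65 in the wild-type libraries. The region at 89905801 ends just before the gene, and the stretch within the one at 89974601 has a Rasgrf1 coding exon at its centre. The count was 10 without Uhrf1 KO replicate 2, and 8 and 9 without wild-type replicates 1 and 2.

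After the gene, a block of H3K9me3 was called in all 6 libraries. This block between Rasgrf1 and Ctsh, chr9:90033001-90054600, held 1100 and 927 ChIP reads in the wild-type libraries, 626 and 1682 in Uhrf1 KO, and 984 and 1340 in Dhx9 KO. The highest log2 fold of its peaks was 1.72 and 1.89 in wild-type cells, 2.84 and 2.32 in Uhrf1 KO and 1.43 and 1.81 in Dhx9 KO. Both Uhrf1 KO values lay above both wild-type values, as folds did over the whole Uhrf1 KO lists. The block was singled out as the member region with the lowest adjusted p for Uhrf1 KO among all regions called in every library. Its difference from wild-type was thus chosen from these same values and is no separate support. The peak of the block with the highest log2 fold was also ranked among all peaks of its own list. It stood at the percentile 81.2 and 84.7 in wild-type cells, 94.2 and 83.0 in Uhrf1 KO and 82.6 and 88.7 in Dhx9 KO, so the groups overlapped. This peak differed in place and width between libraries, with 4000 and 7400 bp in wild-type cells and 3600 and 21400 bp in Uhrf1 KO. The block could be fitted for Uhrf1 KO only among all regions called in every library, where its log2 difference was 0.61 ± 0.13 (SE, adjusted p = 0.254), so it did not pass the test. For Dhx9 KO it was 0.20 ± 0.13 (adjusted p = 0.569), and without Dhx9 KO replicate 1 it was 0.28 (adjusted p = 0.0216). The fit without that library takes the spread from the wild-type libraries alone and assumes that the lone Dhx9 KO library varies like them. Only its size is therefore given. Another Dhx9 KO region within Rasgrf1, chr9:89993401-90010800, had a difference of 0.09 ± 0.14 (adjusted p = 0.880). In this edgeR test 0.553% of the 4701 Dhx9 KO regions were lower and 0.0425% higher. In that of Uhrf1 KO 5.54% of 2528 were lower and 3.2% higher, and no region of the member windows was covered enough to enter it. Among all regions called in every library, edgeR found 0 of 40511 Uhrf1 KO regions lower or higher at the adjusted threshold, with 2211 lower and 2782 higher at an unadjusted p under 0.05, and 0.00344% of the 58214 Dhx9 KO regions lower and 0 higher, with 3961 and 1868 at an unadjusted p under 0.05.

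**Figure D2:**
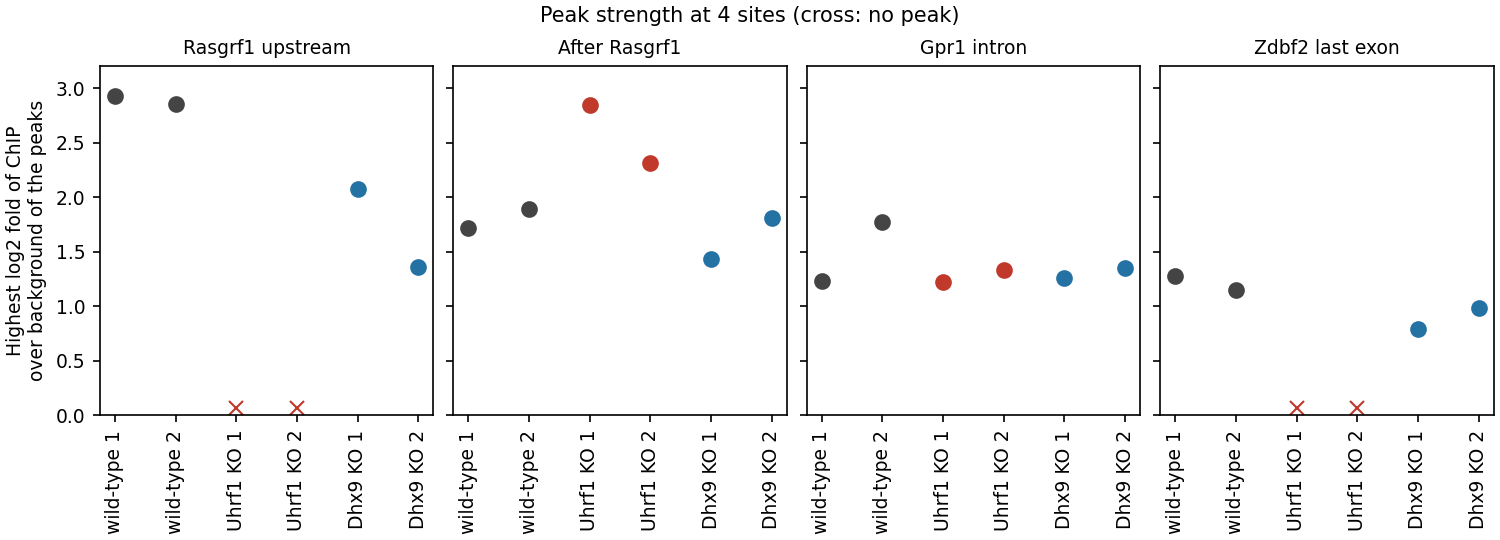
Highest log2 fold of ChIP over background of the peaks at 4 sites (panels), one point per library; a cross at the foot of the axis marks a library with no peak and has no value. The Rasgrf1 upstream and Zdbf2 last exon sites have a cross in both Uhrf1 KO libraries, and the Gpr1 intron site has a point in all 6. After Rasgrf1 the Uhrf1 KO points (2.84 and 2.32) lie above the wild-type points in log2 fold. In rank within each list they do not, as replicate 2 (percentile 83.0) lies between the wild-type libraries (81.2 and 84.7). The upstream site was chosen by its wild-type strength, the last exon site for its lack of a Uhrf1 KO peak. The block after Rasgrf1 was chosen by its Uhrf1 KO fit, so the panels do not test these differences.

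The length of the Rasgrf1 window under peaks was 128979 and 122379 bp in wild-type cells, 35000 and 95579 bp in Uhrf1 KO, and 112379 and 108379 bp in Dhx9 KO. Both knockouts lay below both wild-type libraries without overlap, as in 58.1% of the windows of all genes for Uhrf1 KO and 27.6% for Dhx9 KO. The Uhrf1 KO libraries differed from each other by more than replicate 2 differed from wild-type, and the shortest length was in the smallest library. The mean was 48.1% lower than in wild-type cells for Uhrf1 KO and 12.2% lower for Dhx9 KO (exact permutation test, two-sided, p = 0.33 for both, the smallest p that 2 against 2 libraries allow). The Uhrf1 KO value was -23.9% without Uhrf1 KO replicate 1 and -72.2% without replicate 2. Counted by base, 101400 bp lay under peaks of both wild-type lists, of which 23600 bp (23.3%) lay under no Uhrf1 KO peak and 23800 bp under peaks of both Uhrf1 KO lists. For Dhx9 KO these were 9000 and 68200 bp.

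**Figure D3:**
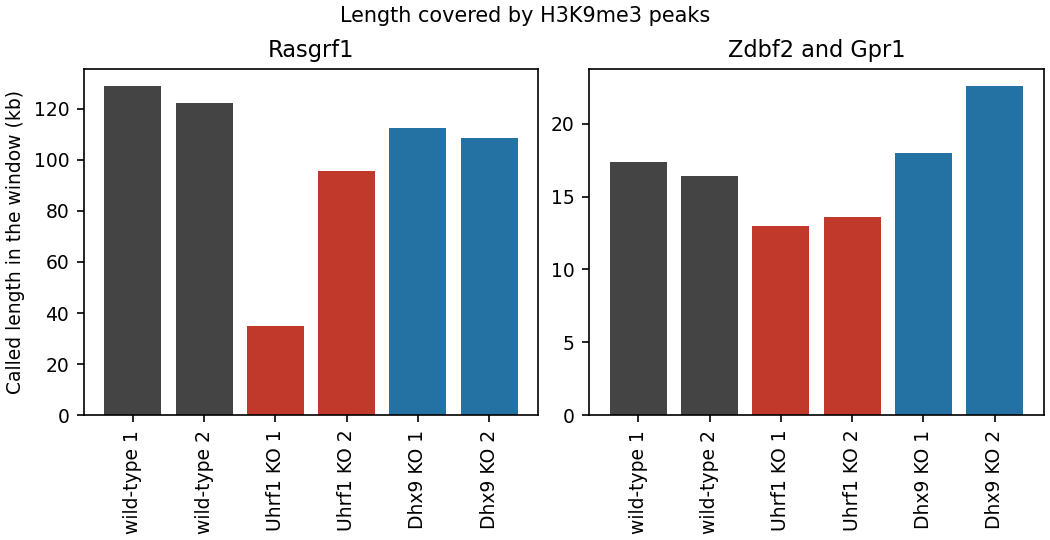
Length of each window under H3K9me3 peaks, in kb, one bar per library; the vertical scales of the panels differ. Around Rasgrf1 both knockouts lie below wild-type, with Uhrf1 KO replicate 1 at 35.0 kb, and around Zdbf2 and Gpr1 the Uhrf1 KO bars lie below and the Dhx9 KO bars above the wild-type bars.

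Dhx9 KO kept nearly all stretches of the Rasgrf1 window. Of the 29, 25 (86.2%) had a peak in both Dhx9 KO libraries, against 71.7% of all stretches, and 1 (3.45%) had none, against 7.15%. No merged region of the window was lost in Dhx9 KO, where 6.97% of all such regions were lost. One was gained, where 8.74% of all regions with a peak in both Dhx9 KO libraries were gained. It lay upstream of the gene at chr9:89899801-89903200, with 92 and 106 ChIP reads and log2 folds of 0.67 and 0.49, and it was not called with peaks of an FDR of at most 1e-10.

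H3K9me3 around Zdbf2 and Gpr1 was sparse, and the annotated starts of both genes had none in any library. Peaks covered 17400 and 16400 bp of the window in wild-type cells, 13000 and 13600 bp in Uhrf1 KO, and 18000 and 22600 bp in Dhx9 KO. No library had a peak over 68.8 kb, chr1:63233401-63302200, which hold the main Zdbf2 promoter, or over 43.0 kb, chr1:63187601-63230600, which hold the start of the long Zdbf2 transcripts and both Gpr1 promoters. The long-transcript promoter printed above lay 12507 bp from the nearest peak of any library and held 3 hexamers. Of the 32851 promoters in the RefSeq table, 11.6% held at least 1. The main Zdbf2 promoter, with 38 CpG and a GC content of 74.7% in 300 bp, lay 28882 bp from any peak. The Gpr1 promoters lay 16069 and 19634 bp away, and the Rasgrf1 promoter lay 124 bp from a wild-type peak and within none.

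The single site of Zdbf2 whose merged region was lost in Uhrf1 KO was the start of its last exon. At chr1:63302601-63304400, of 1800 bp with coding sequence at its centre, the wild-type peaks held 87 ChIP reads over 40 background reads (log2 fold 1.28) and 76 over 40 (log2 fold 1.14). Neither Uhrf1 KO library had a peak, and the nearest were 15700 and 16900 bp from the printed part. Dhx9 KO had peaks of 4200 and 4600 bp here, with 152 and 195 reads and log2 folds of 0.79 and 0.99, so the peaks were longer and their folds lower than in wild-type cells. This stretch had 22.8 CpG per kb (above 93.7% of all stretches) and held 2 hexamers. A stretch of the same window with a peak in both Uhrf1 KO libraries, chr1:63336201-63336800, was alike, with 21.7 CpG per kb and 1 hexamer. Of the 6466 stretches of the genome with at least as many CpG per kb, 16.1% had no Uhrf1 KO peak, against 25.6% of those with fewer. These sets differed in strength too, with median lower wild-type log2 folds of 1.63 and 0.90.

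The loss at the last exon rested on weaker data than that at Rasgrf1. Peaks of like width were called with at least 23 ChIP reads in Uhrf1 KO replicate 1 (5th percentile 30) and at least 38 in replicate 2 (5th percentile 55), against the wild-type counts of 87 and 76. These counts were not scaled to a common library size and the Uhrf1 KO lists have another background, so the gap does not measure a loss. With peaks of an FDR of at most 1e-10 no region of this window was lost, because the peak of wild-type replicate 2 had an FDR of 5.17e-10. In the merged region of the last exon, chr1:63302201-63306800, the Dhx9 KO difference was -0.24 ± 0.21 (SE, log2, adjusted p = 0.759), and it turned to 1.04 when the called length was not taken into account.

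Gpr1 held 1 H3K9me3 site, in an intron, and all 6 libraries had a peak there. At chr1:63185201-63186800 the peaks held 124 and 91 ChIP reads in wild-type cells, 77 and 153 in Uhrf1 KO, and 86 and 127 in Dhx9 KO. The log2 folds were 1.23 and 1.77, 1.22 and 1.33, and 1.26 and 1.35 in the same order, and the 3 groups overlapped. The fitted log2 difference was 0.14 ± 0.24 (adjusted p = 0.853) for Uhrf1 KO and -0.07 ± 0.23 (adjusted p = 0.950) for Dhx9 KO (edgeR, all regions called in every library). The stretch had 8.12 CpG per kb, no hexamer and 65.6% repeat-masked sequence.

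Over the whole window, 2 of 9 wild-type stretches (22.2%) had no Uhrf1 KO peak and 4 (44.4%) had a peak in both libraries, again close to the shares of all stretches. The second stretch without a peak, chr1:63232201-63232800 in a Zdbf2 intron, was 98.0% repeat-masked, and Uhrf1 KO replicate 2 had a peak of 600 bp close by with a log2 fold of 2.98 over 4 background reads. As merged regions, 1 of 8 was lost and none gained in Uhrf1 KO, and none of 7 was lost and none gained in Dhx9 KO. The 6 stretches after Zdbf2 all had a peak in at least 1 Uhrf1 KO library. The strongest wild-type stretch of this window had a log2 fold of 1.27 in the lower of its wild-type libraries and a peak in both Uhrf1 KO libraries. Of the 27286 stretches of the genome at least as strong, 7.66% had none.

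The called lengths of the knockouts lay on opposite sides of wild-type in this window. Uhrf1 KO was 21.3% below the wild-type mean, with both libraries below both wild-type libraries, and Dhx9 KO was 20.1% above it, with both libraries above. Of the windows of all genes, 58.1% were below for Uhrf1 KO and 9.12% above, and 18.0% were above for Dhx9 KO. Neither difference could pass the test (exact permutation test, two-sided, p = 0.33 for both). Without Dhx9 KO replicate 2 the Dhx9 KO value was 6.51%, and without replicate 1 it was 33.7%. With peaks of a log2 fold of at least 1 the Dhx9 KO value turned to -33.3%, and with the same number of peaks in each list the Dhx9 KO value was 1.08% and the Uhrf1 KO value turned to 5.38%.

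**Figure D4:**
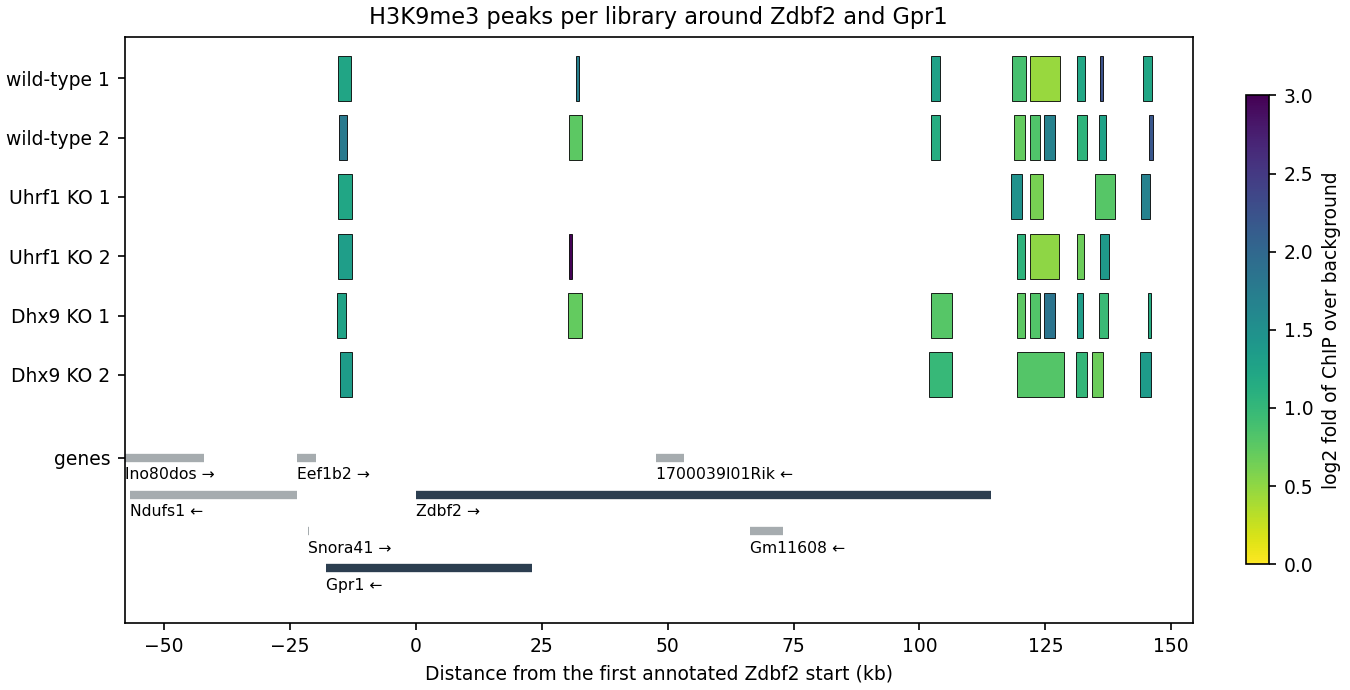
H3K9me3 peaks of the 6 libraries (rows) around Zdbf2 and Gpr1, by distance in kb from the first annotated Zdbf2 start; box colour is the log2 fold of ChIP over background and bars at the foot are genes. The Gpr1 intron peak is in all 6 rows, the last exon peak is missing from both Uhrf1 KO rows, and no row has a box over the first Zdbf2 start or in the 68.8 kb before the last exon.

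Across the 38 stretches of both windows, strength and CpG density did not sort kept from lost stretches on their own. The stretches without a Uhrf1 KO peak held 8.75 to 24.7 CpG per kb around Rasgrf1, and those with a peak in both libraries 6.67 to 17.1. Around Zdbf2 and Gpr1 the ranges were 5.00 to 22.8 and 8.12 to 21.7, so they overlapped at both loci. The 3 stretches with a lower wild-type fold above 2 all lacked a Uhrf1 KO peak. Of these, the upstream site and the stretch of 600 bp beside it share a peak of wild-type replicate 2 and are not separate sites.

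**Figure D5:**
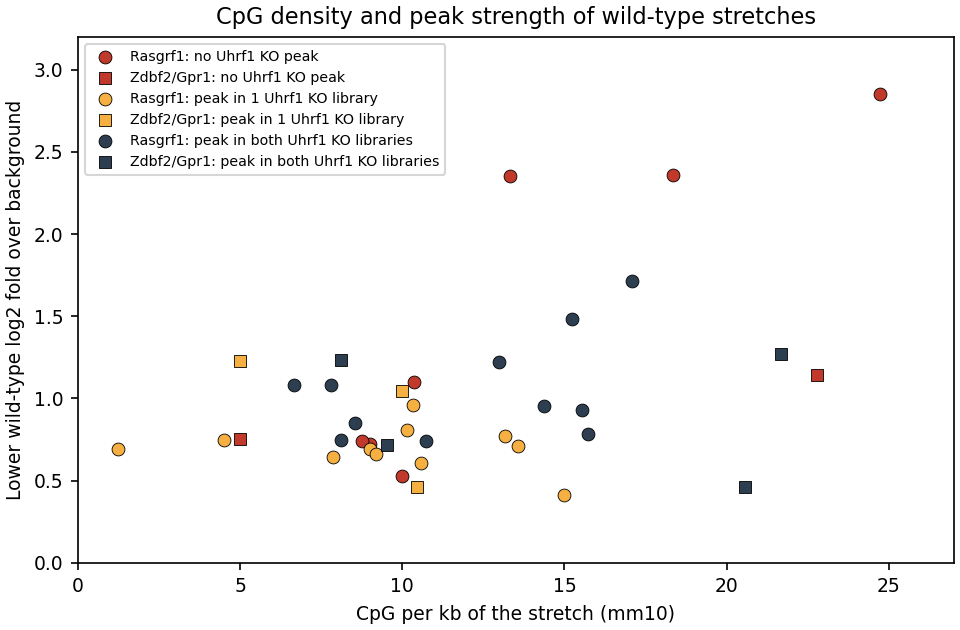
CpG per kb (horizontal) and the lower of both wild-type log2 folds over background (vertical) of the 38 wild-type stretches; shape marks the window and colour the number of Uhrf1 KO libraries with a peak. The Rasgrf1 upstream site is the point at 24.7 CpG per kb and 2.85, and the classes overlap below a fold of 2.

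In the windows of H19 and Meg3, other paternally methylated loci of the mouse, a larger part of the length under wild-type peaks had no Uhrf1 KO peak. Around H19, a non-coding RNA gene next to Igf2, 2 of 5 wild-type stretches had no Uhrf1 KO peak, and around Meg3, a non-coding RNA gene of the Dlk1 domain, 6 of 9 had none. The share over all stretches of the genome was 25.0%. By base, 46.4% of the length under peaks of both wild-type lists lay under no Uhrf1 KO peak around H19 and 84.2% around Meg3, against 23.3% around Rasgrf1 and 23.1% around Zdbf2 and Gpr1. The Uhrf1 KO libraries had 2000 and 36146 bp under peaks around H19, and 6600 and 10600 bp around Meg3. The windows spanned 82617 bp for H19 and 110734 bp for Meg3, against 197504 bp for Rasgrf1 and 212006 bp for Zdbf2 and Gpr1. The shares by base therefore depend on how much other sequence each window holds, and no share by base over the genome stands beside them. These differences between loci were not tested.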

How the data were processed

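H3K9me3 ChIP-seq peak lists of 6 mESC libraries were used, grouped by the sample labels. Per the labels and the study's methods, the authors aligned reads with Bowtie2 2.3.4.3 to mm10, subsampled them with SAMtools and called peaks per library with epic2, an implementation of SICER (version 0.0.51 in the submitters' processing notes). The methods name wild-type input as background and a like read number per library, which the Uhrf1 KO lists do not show. The deposited lists hold ChIP and background read counts per peak without normalization, the p-value and FDR of the authors' peak caller, and ChIP over background as a log2 fold that takes library size into account. The deposited annotation gave gene positions, in bp.

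The members and lists were chosen with earlier results of these data known. Peaks of the libraries compared were merged where they overlapped or touched. A region was lost where both wild-type libraries and no knockout library had a peak, and gained in the reverse case. Stretches are parts of at least 600 bp shared by a peak of both wild-type lists. Every region over the windows that was called in both libraries of a genotype could be named, and H19 and Meg3 served for comparison. ChIP reads in regions called in all 4 libraries of a comparison, with peaks over at least 80% of each, were tested with edgeR 4.0.16 (R 4.3.3; quasi-likelihood, TMM, called length as offset) and Benjamini-Hochberg adjustment at 0.05 over 2528 regions for Uhrf1 KO and 4701 for Dhx9 KO. On counts simulated for these regions with a fixed spread between libraries and 200 regions changed 2-fold, the test recovered 185 and 192, with 8 and 9 false calls. The simulation held no uncalled regions and no change of background, so it does not cover those features of the data. Values from all regions called in every library, which include every Uhrf1 KO value of the member regions, came from a second fit that was not simulated. Called lengths were compared with exact permutation tests. Alternatives included DESeq2 1.42.0. Sequences were read from GRCm38 with Python 3.11.15 and RefSeq promoters from a table that held all 5 promoters of the members. The total ChIP reads in peaks were 6703081 to 20875020 per library, and the read counts carry counting error only.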

Additional observations from a re-analysis of the deposited data

Results flagged for a closer look

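Around Zdbf2 and Gpr1, every Uhrf1 KO library had a shorter called length than every wild-type library and every Dhx9 KO library a longer one. The mean differences from wild-type were -3600 bp for Uhrf1 KO and 3400 bp for Dhx9 KO. The difference between the knockouts was not tested, both comparisons share the wild-type libraries, and the Uhrf1 KO lists were called with another background.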

How the results depend on the processing

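Few values are firm with 2 libraries a group. The test of well-covered regions took in 2 member regions for Dhx9 KO and none for Uhrf1 KO, the Uhrf1 KO lists have another background, and weak sites lie near the smallest counts that were called. The lists of stretches and the fit of all regions were added after seeing the data. The upstream Rasgrf1 site was called in both wild-type libraries and in neither Uhrf1 KO library in each list of peaks used. The stricter lists are parts of the main lists and could not add a Uhrf1 KO peak, so they do not check this loss. Counts of regions moved. The causes of the changes given here were not tested.

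Regions with lower and higher read counts in Uhrf1 KO, 140 and 81, became 82 and 29 with DESeq2, 0 and 0 with equal library sizes, 42 and 9 with all 6 libraries in one fit, and 0 and 0 among all regions called in every library. The higher count was 134 with no length offset. Leaving out each library gave 49 to 200 lower and 4 to 155 higher. For Dhx9 KO, 26 lower and 2 higher became 9 lower with equal library sizes, 12 lower with no length offset, 6 lower with all 6 libraries and 2 and 0 among all regions. Leaving out each library gave 7 to 502 lower and 2 to 232 higher. Replicate numbers did not pair the libraries (correlation of deviations 0.06 for Uhrf1 KO and -0.07 for Dhx9 KO), and a replicate block gave 141 and 71 for Uhrf1 KO and 64 and 16 for Dhx9 KO.

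Lost Rasgrf1 regions in Uhrf1 KO, 5, were 3 with peaks within 1 kb merged or with 5 kb on each side, and 5 to 10 with each library left out. For Zdbf2 and Gpr1 the 1 lost region became 0 at an FDR of at most 1e-10, 2 at a log2 fold of at least 1 or with an equal number of peaks, 3 with 100 kb on each side and 1 to 3 with each library left out, and 1 was gained at a log2 fold of at least 1 or with an equal number of peaks. In Dhx9 KO the 1 gained Rasgrf1 region became 0 at the stricter FDR, at a log2 fold of at least 1, with an equal number of peaks, with 1 kb merging and with 5 kb on each side, and 0 to 2 regions were lost with each library left out. For Zdbf2 and Gpr1, 1 was lost at the stricter FDR, 2 at a log2 fold of at least 1 and 0 to 1 with each library left out, and 1 was gained with 100 kb on each side. Stretches without a Uhrf1 KO peak were 8 to 17 around Rasgrf1 and 1 to 4 around Zdbf2 and Gpr1 with each library left out, and 0 around the latter at the stricter FDR.

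The Uhrf1 KO called length stayed below wild-type around Rasgrf1 (-72.2% to -23.9% with each library left out). Around Zdbf2 and Gpr1 it was -36.5% at the stricter FDR, -29.0% at a log2 fold of at least 1, 5.38% with an equal number of peaks, -43.3% with 5 kb on each side and -23.6% to -18.9% with each library left out. The Dhx9 KO length around Rasgrf1 was -6.15%, 2.36%, -0.59% and -19.9% in the same order, -7.16% with 100 kb on each side and -14.4% to -9.81% with each library left out. Around Zdbf2 and Gpr1 it was 58.1% at the stricter FDR, -33.3% at a log2 fold of at least 1, 1.08% with an equal number of peaks, 43.1% with 100 kb on each side and 6.51% to 33.7% with each library left out. The Dhx9 KO log2 difference at the last Zdbf2 exon turned to 1.04 with no length offset, that of the region within Rasgrf1 ranged from -0.0065 to 0.18 and that at the Gpr1 intron from -0.19 to 0.037 with each library left out.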
